A study of Mus musculus with 25 samples.

Results

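Ralgds, Susd6, Efr3b, Slc25a34, Syt9 and Arhgap19 are 6 of the 24411 genes listed in hippocampal neuronal nuclei RNA-seq tables of male mice. They were picked on their rise from GFP control to Ftl1 OE in the overexpression table, so their difference in that table is a description and carries no test. All 6 were found in each of the 3 tables. What could be tested was how they stood in the knockdown and the aging tables, which the rule of choice did not use. Earlier results of these data were known when the members were chosen.

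The study asked how the ferritin light chain gene Ftl1, which codes for a subunit of the iron storage shell, bears on aging neurons. Nuclei positive for NeuN and Hoechst were sorted from the hippocampus, and RNA was sequenced from 25 libraries. The overexpression table held 5 libraries of young male mice injected in both hippocampi with a virus carrying GFP under the neuronal synapsin-1 promoter (control) and 7 injected with the same backbone carrying Ftl1 as well (labelled Ftl1 OE). The knockdown table held 4 libraries of male mice aged 18 months given an shRNA against luciferase (sh-Luc, control) and 4 given an shRNA against Ftl1 (labelled Ftl1 KD). The aging table held 3 libraries of wild-type males aged 3 months and 2 of wild-type males aged 18 months, with no virus. All injected groups, the controls included, carried a virus and a reporter. Sorting used a fluorescent NeuN antibody, and no gate on the reporter is described, so nuclei that took up no virus could also be in the libraries. Whether reporter signal added to the NeuN gate is not given in the sources used here. The aging libraries match the number of mice the study names for each age. For the injected groups the sources used here do not tie each library to a separate animal, so there p-values measure the spread between libraries only.

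The 6 proteins have unlike roles. RALGDS is an exchange factor that links active Ras to the small GTPases RalA and RalB, which act on the exocyst, the complex that tethers vesicles to the plasma membrane. EFR3B anchors the kinase PI4KA at the plasma membrane, where that kinase makes phosphatidylinositol 4-phosphate. SYT9 is a synaptotagmin, one of the calcium sensors of vesicle fusion, ARHGAP19 is a GTPase-activating protein, SLC25A34 belongs to the mitochondrial carrier family, and SUSD6 is a membrane protein with a sushi domain whose gene is induced by p53.

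On the GRCm38 (mm10) assembly with the GENCODE annotation, all 6 are protein-coding genes on 5 chromosomes. Ralgds lies at chr2:28513125-28553081 on the plus strand, Susd6 at chr12:80790510-80880835 (plus), Efr3b at chr12:3962554-4038915 (minus), Slc25a34 at chr4:141618824-141623821 (minus), Syt9 at chr7:107370728-107548656 (plus) and Arhgap19 at chr19:41766588-41802047 (minus). Their merged exons span 2670 bases in Slc25a34, 3979 in Syt9, 5103 in Arhgap19, 6159 in Ralgds, 7615 in Susd6 and 10382 in Efr3b, beside a median of 4476 over the 13546 tested genes with a length. Efr3b shares 19 exonic bases with the antisense gene Gm48001. No exon of the others overlaps that of another gene.

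RefSeq gives a promoter for all 6 members. The 250 bases before the start are shown for Slc25a34, a member nearly unread in the controls, and for Efr3b, an abundant one, to show how unlike the windows are. Both are on GRCm38.p6, minus strand, 5′ to 3′. Capitals mark a GC box, the letters GGGCGG or their reverse complement CCGCCC.
Slc25a34, chr4:141623835-141624084: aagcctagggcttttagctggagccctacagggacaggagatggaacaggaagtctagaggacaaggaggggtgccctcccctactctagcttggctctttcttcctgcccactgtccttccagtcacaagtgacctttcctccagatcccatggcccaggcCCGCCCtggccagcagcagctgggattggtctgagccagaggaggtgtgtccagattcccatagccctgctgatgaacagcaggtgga
Efr3b, chr12:4038916-4039165: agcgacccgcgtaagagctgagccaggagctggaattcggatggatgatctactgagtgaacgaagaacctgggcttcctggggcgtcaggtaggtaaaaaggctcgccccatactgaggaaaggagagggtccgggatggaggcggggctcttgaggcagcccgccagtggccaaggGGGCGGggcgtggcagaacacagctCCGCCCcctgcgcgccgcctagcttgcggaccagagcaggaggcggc
The Slc25a34 window held 1 CpG and the Efr3b window 18, beside 21 in Susd6, 12 in Arhgap19, 40 in Syt9 and 29 at the upstream start of Ralgds. The median over 32851 RefSeq promoters was 6. A GC box on either strand stood in at least 1 promoter of every member other than Arhgap19, and in 32.7% of all promoters of that length. The TATA box TATAAA, held by 12.4% of all promoters, and the cyclic AMP response element TGACGTCA, held by 1.55%, stood in none of the member promoters. These matches describe the letters in the windows.

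Depth and identity of the libraries were read before the members. Overexpression libraries held 9943996 to 17034325 reads, aging libraries 7969282 to 9537872, and knockdown libraries 48902 to 358560. In the knockdown table depth went with the label. The sh-Luc controls held 68092 to 358560 reads and those labelled Ftl1 KD 48902 to 97104. Ftl1 RNA was read against the labels: its mean normalized count was 11515 in the GFP controls and 5968 in the libraries labelled Ftl1 OE (log2 difference -0.67, adjusted p = 0.681), which does not pass, and 43.8 in the sh-Luc controls and 118 in those labelled Ftl1 KD (log2 difference 1.47, adjusted p = 6.3e-06, limma over all genes), opposite to the label. The first of these rests in part on control library 9905, at 28309 normalized counts. FTL1 protein, which the study followed by western blot in both models, is not analysed here. Directions below are therefore given for libraries by their label. The 6 neuron markers were read in every overexpression and aging library, and markers of astrocytes and oligodendrocytes were read there too, with at most 1 of 8 at 0 in any library. Summed astrocyte markers were at 12578 to 45620 in the GFP controls and 20163 to 60444 in the libraries labelled Ftl1 OE. Wild-type libraries held 5576 to 8425 (young) and 4343 to 7225 (aged). Summed neuron markers were at 33494 to 70365 and 33880 to 48274, and in wild type at 34414 to 43988 and 42522 to 44344. These are normalized counts, scaled separately in each table.

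In the overexpression table, the members fell into a set of abundant genes (Ralgds, Susd6, Efr3b) that were 1.75 to 2.09-fold higher in the libraries labelled Ftl1 OE, and a set of scarce genes (Arhgap19, Slc25a34, Syt9) that had few or no reads in the controls and were read in all 7 libraries labelled Ftl1 OE. Values are normalized counts, that is reads divided by a size factor per library, and are set side by side for 1 gene at a time. Controls are given in the order 9901, 9904, 9905, 9925 and 9926, and the other group by its lowest, median and highest library.

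Ralgds, the exchange factor for Ral, stood at 884, 830, 591, 1785 and 600 in the controls, and at 1564, 2031 and 2313 in the libraries labelled Ftl1 OE. The means were 938 ± 492 (SD, n = 5) and 1959 ± 280 (SD, n = 7), a ratio of 2.09. The groups overlapped through control 9925 alone: 5 of 7 libraries labelled Ftl1 OE lay above every control, and all 7 lay above the other 4 controls. The difference in mean log2(normalized count + 1) was 1.18, and with 1 library left out it ran from 1.04 (without 9905) to 1.44 (without 9925).

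Efr3b, the membrane anchor of PI4KA, stood at 538, 557, 377, 812 and 565 in the controls, and at 799, 1101 and 1571 in the libraries labelled Ftl1 OE. Means were 570 ± 156 and 1105 ± 234, 1.94-fold apart. Again 9925 was the highest control, and 6 of 7 libraries of the other group lay above it, with 9910 the exception. Library 9918 stood apart at the top.

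Susd6, the p53-induced sushi domain gene, had the narrowest spread of the members in the controls, with a coefficient of variation of 16.3%, and 15.7% in the libraries labelled Ftl1 OE, where Ralgds stood at 14.3%. Its controls stood at 1025, 1100, 952, 1038 and 699, and the libraries labelled Ftl1 OE at 1328, 1701 and 1974. The groups did not overlap, and their means of 963 ± 156 and 1688 ± 265 were 1.75-fold apart.

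Arhgap19, the GTPase-activating protein, stood at 32.9, 0, 0, 20.9 and 1.16 in the controls and at 26.3, 90.1 and 175 in the libraries labelled Ftl1 OE. These values rest on 63 reads in the 5 controls and 765 in the other 7 libraries. The means of 11 ± 15.1 and 97.8 ± 44.5 were 8.89-fold apart. With 1 control left out, they were from 7.11-fold (without 9904 or 9905) to 17.7-fold apart (without 9901, the highest). Only the lowest library labelled Ftl1 OE, 9923, fell below a control, the highest one, 9901.

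Slc25a34, the mitochondrial carrier, was listed at 0 in 4 controls and at 4.41 in 9925, where 4 reads were counted. The libraries labelled Ftl1 OE ran from 9.92 through a median of 28.7 to 67.1, or 12 to 76 reads each. Together they held 248 reads, beside the 4 of the controls, and the groups did not overlap.

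Syt9, the vesicle calcium sensor, was listed at 0 in 4 controls and at 2.32 in 9926, from 2 reads. The libraries labelled Ftl1 OE ran from 3.59 through 43.2 to 104, and held 393 reads together. The groups did not overlap, although the lowest of them, 9895, held 3 reads, 1 more than the highest control. The spread within the group was 29.1-fold between 9918 and 9895.

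**Figure D1:**
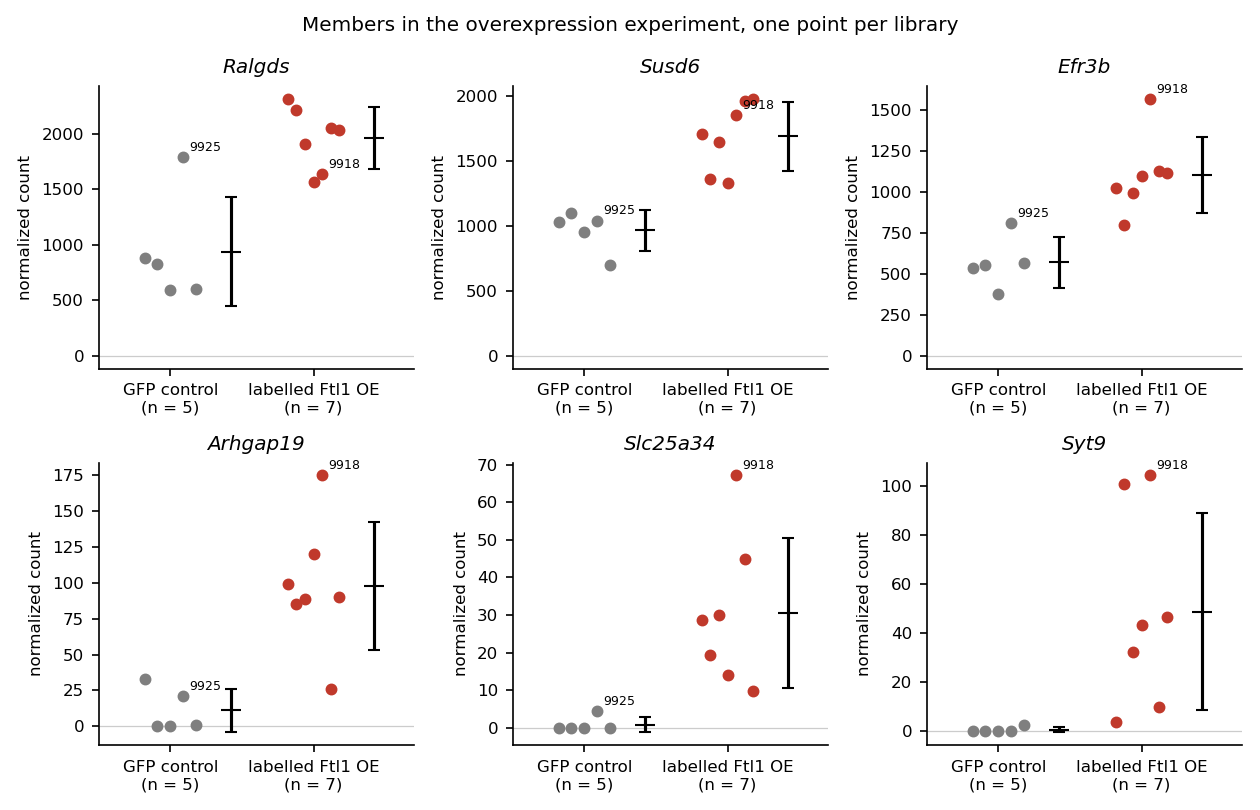
Normalized counts of the 6 members in the 12 libraries of the overexpression table, one panel per gene with its own axis from 0; points are libraries, bars are mean ± SD, and libraries 9925 and 9918 are marked where they stand above 3. Susd6, Slc25a34 and Syt9 show no overlap between groups, and control 9925 is the highest control of Ralgds, Efr3b and Slc25a34.

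Taking the members as they were chosen, 3 of 6 lay above every control in all libraries labelled Ftl1 OE, where 0.17% of the 14099 genes tested did so (24 genes). When each of the 12 libraries was left out in turn, an alternative chosen after seeing the data, the count of members stayed at 3 in 8 cases and was 4 in 3, and of all genes 28 to 73 did so. It was 5 in 1 case, without control 9925 (67 genes, 0.475%). Ranked by log2 difference among those 14099 genes, Syt9 stood at place 2, Arhgap19 at 5 and Slc25a34 at 6, while Ralgds, Efr3b and Susd6 stood at 1511, 1919 and 2345. These counts and ranks come from the contrast that chose the members, so they carry no test. Syt9 and Slc25a34, with control means of 0.46 and 0.88, passed the filter of a mean of at least 10 only through the libraries labelled Ftl1 OE. With a pseudocount of 5 in place of 1, Syt9 stood at place 6, Arhgap19 at 2 and Slc25a34 at 21, and the difference was 2.85 in place of 4.67 for Syt9 and 2.46 in place of 4.25 for Slc25a34.

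The 6 genes did not share their extreme libraries evenly. Library 9918 was the highest for Efr3b, Slc25a34, Syt9 and Arhgap19, but the next to lowest of its group for Ralgds. Library 9895 held the highest Ralgds value and the lowest Syt9 value of its group. After each gene was scaled to mean 0 and SD 1 over the 12 libraries on the log2 scale, the mean of the 6 ran from -1.43 (9905) to -0.28 (9925) in the controls and from 0.51 (9915) to 1.10 (9918) in the other group, a gap that the choice of members fixes. Reads of all 6 were present in each of the 7 libraries labelled Ftl1 OE, and of 3 to 5 members in the controls.

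**Figure D2:**
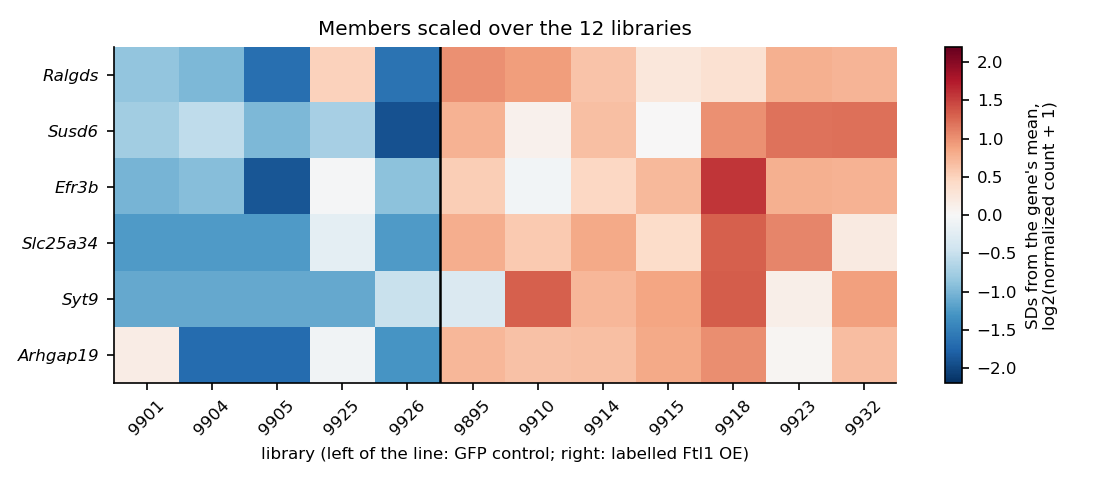
Each row is a member and each column a library of the overexpression table; colour gives SDs from the mean of the gene over the 12 libraries on the scale log2(normalized count + 1). Control 9925 lies nearest to the other group, and 9918 is the highest library for Efr3b, Slc25a34, Syt9 and Arhgap19.

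Other measures varied beside the members. The controls with the lowest mean scaled values, 9905 and 9926, also had the fewest genes detected of the controls, 12281 and 13495, but 9918, with the highest, had the fewest of its group, 13455. Leaving out 9905 and 9926 was an alternative chosen after seeing the data. Without 9905 and 9926 the differences were 0.83 for Ralgds, 0.66 for Susd6, 0.80 for Efr3b, 3.28 for Arhgap19, 3.93 for Slc25a34 and 5.01 for Syt9, beside 1.18, 0.81, 0.97, 4.33, 4.25 and 4.67 with all libraries. Above every remaining control lay 163 genes (1.16%), 3 members among them. Of 76 ribosomal protein genes 73 were lower in the libraries labelled Ftl1 OE (median log2 difference -0.72), as were 72 of 75 OXPHOS subunit genes (-0.66) and 7 of 10 microglial markers (-0.99), with 0 past the threshold of limma or edgeR in any of these lists. At an unadjusted p of 0.05 in limma, 62 of the ribosomal protein genes, 55 of the OXPHOS genes and 4 of the microglial markers were lower. DESeq2 called 24, 26 and 1 of them, all lower. The summed microglial level was 3147 to 7134 in the controls and 1959 to 3293 in the other group. Astrocyte markers were higher for 6 of 8 (0.43), and the other marker lists had medians from -0.54 in 8 interneuron markers to 0.16 in 8 nuclear RNAs, apart from 1.14 over the 3 endothelial markers tested. Of the interneuron markers, DESeq2 called 1 lower (Sst). At an unadjusted p of 0.05 in limma, 2 interneuron markers were lower and 1 was higher. The part of these shifts in the members' values was not tested. In sorted nuclei pooled into bulk RNA, fewer nuclei of a type and less RNA per nucleus cannot be told apart.

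Over all genes, limma called none in the overexpression contrast at an adjusted p of 0.05 (507 higher and 516 lower at an unadjusted p of 0.05), edgeR called 0, and DESeq2 called 101, of which 94 were lower. So no relative or partner of a member passed the limma threshold there. The median log2 difference of all 14099 genes was 0.10.

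Around Ralgds, 18 other genes of Ral signalling were tested, and their median difference was 0.23. Ralgapa1, a subunit of the complex that switches Ral off, stood at 1480 ± 923 in the controls and 1828 ± 475 in the libraries labelled Ftl1 OE (adjusted p = 0.730), and Rgl1, another Ral exchange factor, at 1332 ± 331 and 1229 ± 217 (adjusted p = 0.896). Exoc2, an exocyst subunit that binds Ral, and Rala are named after their values were seen. Exoc2 is among the 24 genes with no overlap, and stood at 304 ± 65.6 and 494 ± 91.7, with a difference of 0.71 and an adjusted p of 0.546 (limma). Rala, the GTPase itself, stood at 447 ± 97.4 and 312 ± 97.8 (adjusted p = 0.695).

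Around Efr3b, the 7 other genes of the PI4KA complex had a median difference of 0.39. Pi4ka, the kinase, stood at 1791 ± 273 and 2056 ± 271 (adjusted p = 0.760). Efr3a, the paralog with the same role, stood at 1432 ± 707 and 1357 ± 407 (adjusted p = 0.990), and the difference of 0.02 was small beside its standard error of 0.34.

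The other lists stood as follows. The 14 other synaptotagmins tested had a median of 0.10, with differences of 0.35 for Syt13, 0.14 for Syt7 and -0.97 for Syt10 (adjusted p from 0.660 to 0.896). The 7 related SLC25 carriers had a median of -0.17, with Slc25a11, the oxoglutarate carrier, at 4333 ± 1481 and 3547 ± 695 and Slc25a14 at 2127 ± 591 and 1878 ± 457. The 16 other p53 targets had a median of 0.05, with Bax at 2869 ± 1626 and 1907 ± 335 and Ei24 at 1399 ± 278 and 1448 ± 171. Of the 7 genes of the SUSD family and the SUSD6 partners (median 0.27), Susd4 stood at 2661 ± 590 and 2520 ± 407, and Tmem127, the partner of SUSD6, at 1250 ± 438 and 1423 ± 189.

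The genes whose pattern was most like that of the members were sought by Pearson's r with the mean of the 6 scaled members over the 12 libraries, among 10472 genes with a mean of at least 100. The points share the group contrast that chose the members, so r describes and does not test. The highest were Grhl1 (r = 0.93), Dtx4 (0.90), Sox12 (0.90), Kansl3 (0.90), 1810041L15Rik (0.88) and Ppp1r15b (0.88). Sox12, a SoxC transcription factor, ran from 28.4 to 108 in the controls and from 127 to 343 in the libraries labelled Ftl1 OE, and Kansl3, a subunit of the NSL acetyltransferase complex, from 407 to 784 and from 822 to 1253. The most opposite were Tmsb10 (-0.92), Anapc13 (-0.91), the complex I subunit gene Ndufc1 (-0.91) and the spliceosomal gene Snrpe (-0.90). Ndufc1 ran from 782 to 1106 in the controls and from 423 to 558 in the other group.

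In the knockdown table the members were read from few counts, and only Ralgds passed the threshold, with lower values in the libraries labelled Ftl1 KD. The 3 abundant members passed the filter of a mean of at least 1, and limma called 436 of 8592 genes (5.07%), 151 of them higher and 285 lower (3.32%). When each library was centred on its median, the split turned to 208 higher and 140 lower, and the median difference of all genes moved from -0.13 to 0.06.

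Ralgds stood at 6.61, 14.9, 7.49 and 13.8 in the sh-Luc controls 1, 2, 3 and 5, from 81 reads in all, and at 0, 7.22, 3.64 and 0 in the libraries labelled Ftl1 KD 1, 3, 4 and 5, from 10 reads. It fell by 2.16 on the log2 scale (SE 0.59, 95% interval -3.32 to -1.0, adjusted p = 0.0119). Of the 4 libraries, 3 lay below every control and library 3 lay above control 1. The count is small enough for the call to turn: the adjusted p was 0.0306 with edgeR and 0.0836 with DESeq2, and with limma it rose to 0.0916 without control 2, 0.0738 without control 5, 0.0659 without the library labelled Ftl1 KD 1 and 0.0635 without 5. Controls 2 and 5, with the highest Ralgds values, were also the deepest libraries of this table, at 358560 and 318645 reads. The part of depth in the Ralgds difference was not tested.

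Susd6 stood at 5.66, 10.9, 7.49 and 5.02 in the controls and at 1.92, 3.61, 0 and 7.35 in the libraries labelled Ftl1 KD. Its difference of -1.29 (SE 0.59) had an adjusted p of 0.200, with 3 of 4 libraries below every control. Efr3b stood at 8.49, 13.7, 7.49 and 20.48 and at 20.1, 13.5, 9.11 and 7.35. The groups overlapped nearly entirely, and the difference was 0.01 with a 95% interval of -0.81 to 0.82 (adjusted p = 0.997). No member tested lay wholly below the controls, where 5.55% of genes did (477).

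The scarce members could not be followed at this depth. Slc25a34 was listed at 0 in all 8 libraries, and 3 reads, the limit that a count of 0 allows, would be 6.97 to 35 RPKM by library (reads per kilobase of exon, scaled to library size). Arhgap19 held 1 read, in control 2, and Syt9 held 1 read in control 2 and 1 in the library labelled Ftl1 KD 3.

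Other measures moved beside the Ralgds value in this table. Of 6 nuclear RNAs tested 4 fell (Malat1, Snhg11, Meg3 and Miat) and 2 were higher without passing. The summed level of the 8 on the list was 619 to 1237 in the controls and 219 to 322 in the libraries labelled Ftl1 KD. The share of reads from Rn45s, the ribosomal RNA precursor, was 31.9% to 55.3% in the controls and 30.3% to 34.5% in the other group. Of 6 oligodendrocyte markers tested 2 fell (Mbp and Cnp), and the summed level of the 8 on that list was 39.7 to 96.8 in the controls and 10.9 to 24.4 in the other group. Of 6 interneuron markers 2 rose (Gad1 and Gad2) and 1 was lower without passing, of 7 astrocyte markers 1 rose (Slc1a3) and 2 were lower without passing, and of 2 precursor markers 1 rose (Olig1). Of 7 dentate granule markers 1 fell (C1ql2), of 4 CA1 markers 1 (Fibcd1) and of 4 CA3 markers 2 (Nptx1 and Grik4), and 1 of each list was higher without passing. These are limma calls, and Gad2, Olig1 and Grik4 passed with neither edgeR nor DESeq2. Of 75 ribosomal protein genes 2 rose, and of 75 OXPHOS genes 7. No neuron marker (of 6) and no microglial marker (of 2) passed. Their part in the Ralgds difference was not tested.

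Among the relatives, the 14 other Ral genes tested gave no call (median -0.24), nor did the 5 of the PI4KA complex (-0.10), the 5 carriers (-0.21), the 3 of the SUSD family and partners (-0.10) and the 12 p53 targets (0.48). Of 13 synaptotagmins 3 were called lower and 0 higher, and 3 were higher without passing. Among those called, Syt13 went from 32.8 ± 7.96 to 16.9 ± 11.4 (adjusted p = 0.0033) and Syt7, a slow calcium sensor, from 7.98 ± 3.67 to 1.42 ± 2.29 (0.0239). Syt10 went from 4.04 ± 0.395 to 0 in all 4 libraries (0.0270). All of these are adjusted p-values of limma over 8592 genes. Of the 3, edgeR called 1 (Syt10) and DESeq2 0.

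In the aging table no member passed the threshold between 3 and 18 months. Limma called none of 13712 genes (0%, with 398 higher and 691 lower at an unadjusted p of 0.05), edgeR 0 and DESeq2 138, and 5 members passed the filter of a mean of at least 10. With 2 aged libraries the spread within that group is poorly known.

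Ralgds stood at 815, 674 and 871 in the young and at 726 and 944 in the aged libraries, with a difference of 0.08 (95% interval -0.56 to 0.73, adjusted p = 0.957). Efr3b stood at 2330, 1842 and 1813 and at 3097 and 1796, a difference of 0.25 (-0.40 to 0.90, adjusted p = 0.845), with 1 aged library above and 1 below every young one.

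Susd6 was the only member tested whose ages did not overlap, at 753, 834 and 760 in the young and 622 and 392.3 in the aged libraries. The difference was -0.66 (95% interval -1.35 to 0.03, adjusted p = 0.642). Both aged libraries lay below every young one in 12.5% of all genes tested (1715).

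Syt9 stood at 12.4, 53 and 7.10 and at 0 and 11.9, with a difference of -2.33 (-6.17 to 1.52, adjusted p = 0.744). Arhgap19 stood at 17.6, 0 and 16.9 and at 14.8 and 60.6, with a difference of 2.17 (-1.45 to 5.80, adjusted p = 0.746). Both pairs of groups overlapped. Slc25a34 was listed at 0 in all 5 libraries, which allows a level of up to 0.12 to 0.15 RPKM by library.

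No gene of the lists that follow passed with limma, edgeR or DESeq2 in this table. The medians without the members were 0.26 over 17 Ral genes, -0.24 over 7 of the PI4KA complex, 0.08 over 14 synaptotagmins, -0.11 over 7 carriers, 0.03 over 5 of the SUSD family and partners and -0.06 over 15 p53 targets, beside -0.03 over all genes. Ribosomal protein genes were higher with age for 71 of 76 (median 0.61) and OXPHOS genes for 56 of 75 (0.27), with 0 called by limma or edgeR. DESeq2 called 1 ribosomal protein gene, Rps19, and 0 OXPHOS genes.

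**Figure D3:**
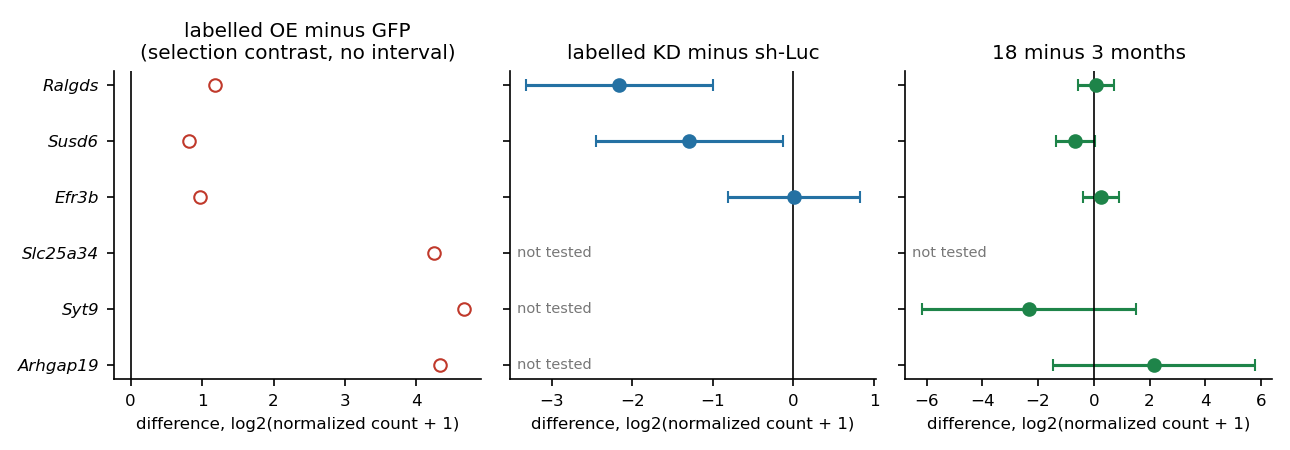
Differences of group means on the scale log2(normalized count + 1) for the 6 members in the 3 tables; open points mark the table that chose them and have no interval, filled points have the 95% interval of limma. Ralgds lies wholly below 0 in the knockdown table, Susd6 lies below 0 there without passing the adjusted threshold, and the intervals in the aging table all include 0.

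To set the genes and the 6 groups side by side, levels were taken as RPKM, reads per kilobase of exon scaled to the size of the library, with Rn45s left out of that size. The tables were made from separate experiments and no test was run across them. RPKM is a share of the library, so it also moves with what else was read. Summed OXPHOS normalized counts were 217123 to 552393 in the GFP controls and 197584 to 302345 in those labelled Ftl1 OE. In wild type they were 51639 to 73800 (young) and 62344 to 75416 (aged). The part of library make-up in differences between tables was not tested. In the GFP controls the order of the levels was Ralgds at 11.7 ± 6.95, Susd6 at 9.56 ± 2.43, Efr3b at 4.18 ± 1.46, Arhgap19 at 0.173 ± 0.240, Slc25a34 at 0.0265 ± 0.0593 and Syt9 at 0.00812 ± 0.0182. Ralgds and Susd6 overlapped, the lowest Susd6 library (6.40) lay just above the highest of Efr3b (6.28), and every abundant gene lay above every scarce one, while the scarce genes overlapped. In the libraries labelled Ftl1 OE the scarce genes reached 1.56 ± 0.754 for Arhgap19, 0.992 ± 0.822 for Syt9 and 0.940 ± 0.631 for Slc25a34, still below the lowest library of Efr3b at 6.08.

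Across groups, Efr3b was lower in all 12 overexpression libraries, at 2.2 to 12.7, than in the 5 wild-type libraries, at 21 to 37.1, and its mean in the libraries labelled Ftl1 OE, 8.66 ± 2.06, stood below that of every other group but the GFP controls. Ralgds in the libraries labelled Ftl1 OE, 25.6 ± 2.92, lay above all wild-type libraries (13.4 to 18.6) but not above the sh-Luc controls (16.1 to 37.5), and the remaining neighbours in its order, aged wild type, young wild type, GFP control and labelled Ftl1 KD, overlapped. For Susd6 the order was labelled Ftl1 OE, sh-Luc, young wild type, GFP control, aged wild type and labelled Ftl1 KD, and only young wild type (12.2 to 13.4) and GFP control (6.40 to 12) did not overlap as neighbours.

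Slc25a34 was read in 8 libraries of the series, the 7 labelled Ftl1 OE and control 9925. Its lowest value among those labelled Ftl1 OE, 0.272, was above the 0.12 to 0.15 that the wild-type libraries allow. Syt9 was different: the young wild-type libraries, at 0.218 to 1.63, lay within the range of those labelled Ftl1 OE, 0.0706 to 2.19, and above the GFP controls, at 0 to 0.0406. For Arhgap19 the aged wild-type libraries, at 0.361 and 1.44, overlapped the range of those labelled Ftl1 OE, 0.428 to 2.87, and the young wild-type libraries, 0 to 0.435, that of the GFP controls, 0 to 0.520.

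**Figure D4:**
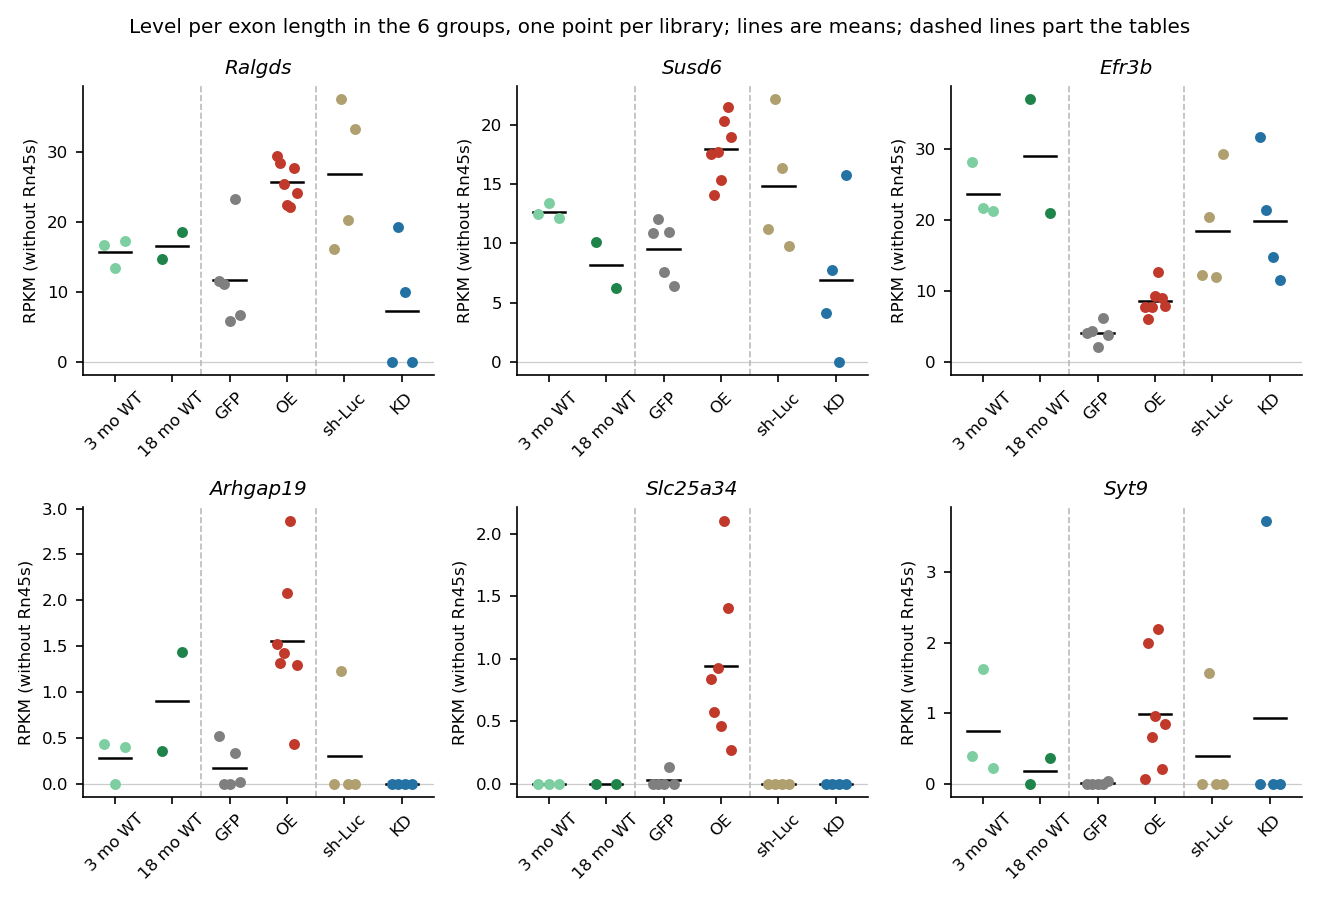
RPKM (reads per kilobase of exon, scaled to library size without Rn45s) for each member in the 25 libraries, in 6 groups from 3 tables parted by dashed lines; points are libraries and lines are group means. Slc25a34 leaves 0 in the overexpression table alone, and Efr3b is lower in both overexpression groups than in the wild-type libraries.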

How the data were processed

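Reads of sorted nuclei were, per the labels and methods, processed by the authors with STAR, RSEM and DESeq2 on mm10, and 3 tables were deposited, 1 per experiment, each normalized separately. Values are signal: the authors' normalized counts, reads divided by a size factor. Whole reads could be recovered for 100% of values (tolerance 0.1 read), and 0 library columns were left unused. The deposited tables also hold the authors' own fold changes and p-values, which were not used. The labels name a strand-specific kit and the methods another protocol, so the strand of counting is not given in the sources used here.

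The members and the lists of relatives and markers were chosen with earlier results of these data known. Each table was fitted alone with limma 3.58.1 (R 4.3.3) on log2(normalized count + 1), trend in the prior variance, group as the only term, over genes with a mean of at least 10 (1 in the knockdown table), with Benjamini-Hochberg adjustment over all of them and a threshold of 0.05. The members got no test in the overexpression table. The list of relatives of Arhgap19 is not reported here. The analysis was tested on simulated data. Named genes were all members, list genes past the threshold (up to 4 a list and table), otherwise the 2 most abundant in the overexpression table, and the 6 most and 4 least alike genes. Alternatives were pseudocounts of 0.5 and 5, TMM scaling, median centring, edgeR 4.0.16 and DESeq2 1.42.0 on recovered reads, no filter, a filter of 100 (10 in the knockdown table), leaving out each library, and a replicate block. Promoters came from RefSeq (GRCm38.p6) and lengths from GENCODE M21.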

Additional observations from a re-analysis of the deposited data

Results flagged for a closer look

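Dixon's gap test was applied to the normalized counts of the 6 members and Ftl1 in the groups of 4 to 10 libraries, 25 in all, and marked 8 values. Chance flags about 1 in 20 groups of continuous values, a rate that does not apply to 5 of the 8, which are the single value above 0 in their group and so always pass. In the GFP controls, library 9925 stood apart for Ralgds at 1785, where the others reached at most 884, and for Slc25a34 at 4.41, where the others were at 0. Library 9926 stood apart for Syt9 at 2.32 against 0 in the other controls, and library 9905 for Ftl1 at 28309 against at most 9953. Among the libraries labelled Ftl1 OE, 9918 stood apart for Efr3b at 1571, with the others at 799 to 1128. In the knockdown table, control 2 stood apart for Syt9 at 0.403 and for Arhgap19 at 0.403, and the library labelled Ftl1 KD 3 for Syt9 at 0.902. Each of the last 3 is a single read beside libraries at 0, and control 2 is the deepest library of its table.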

How the results depend on the processing

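Of 301 values recomputed under alternatives, 273 were taken as kept. The 301 include the differences of the 6 members in the overexpression table, whose direction the choice of members largely sets. Such values kept their direction and side of the threshold, or moved by less than the spread between libraries. A count of all genes called was taken as kept within a set ratio, so 294 in place of 436 in the knockdown table was. In the overexpression table every member kept a higher level in the libraries labelled Ftl1 OE under each of the 17 alternatives run. The choice of the members on these same libraries largely sets that direction, so it carries no test. The genes called there were 0 except for DESeq2 (101) and leaving out 1 library (0 to 1, the 1 without control 9925). In the knockdown table the genes called went from 436 to 200 with a replicate block and ranged from 245 (without control 5) to 546 when 1 library was left out. The members called there, 1 (Ralgds), became 0 with DESeq2 and 0 with a filter of 10, which Ralgds did not pass, and ranged from 0 to 1 when 1 library was left out. With the block Ralgds kept its call (adjusted p = 0.0468). In the knockdown table the numbers showed no pairing of the libraries. Correlations of their deviations ran from -0.021 to -0.007, and 0 of 6 libraries correlated best with their own number. In the aging table the correlations ran from -0.054 to 0.024, and 1 of 4 libraries correlated best with its own number. The 2 aged libraries deviate from their mean by equal and opposite amounts, so that check cannot decide on pairing. The log2 difference of Efr3b in the knockdown table changed sign to -0.0066 with TMM scaling, -0.071 with edgeR and -0.035 with DESeq2, and ranged from -0.24 to 0.26 when 1 library was left out. In the aging table, leaving out 1 library gave -0.11 to 0.27 for Ralgds, -0.14 to 0.64 for Efr3b, -0.99 to -0.33 for Susd6 (the ends without either aged library), -4.17 to -0.48 for Syt9 (likewise, with no value without young library 2, where it did not pass the filter) and 0.78 (without young library 2) to 3.15 (without aged library 2) for Arhgap19. None of these was called. Susd6 in the knockdown table went from -1.29 to -0.53 with the block (adjusted p = 0.798) and to -0.73 without the library labelled Ftl1 KD 4 (adjusted p = 0.560). In the overexpression table Arhgap19 ranged from 3.80 to 5.07 when 1 library was left out. Genes called in the aging table were 0 except with DESeq2 (138). Depth limits the knockdown values, where a member rested on at most 49 reads in a library, and 2 aged libraries limit the aging values. The cause of the other changes was not tested.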
